A study of Mus musculus with 48 samples.

Results

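The homogenate ribosome pellets compared here are 8 of the 48 libraries of the series: 4 from mice aged 3 weeks (3w) and 4 from mice of the middle age (5m). They were taken by their labels alone, as the sucrose cushion (SC) libraries of total homogenate (TH) at these ages, and were described across all genes with enough counts. All mice were untreated wild-type males of the strain C57BL/6JRj, the tissue was cerebral cortex, and each library came from 1 mouse. The middle age is labelled 6 months and the study's protocol gives 5 months, which is the name kept here. From each mouse the study also sequenced TH RNA before the cushion (input_TH) and input and cushion RNA from synaptosomes (SYN), and it sampled mice of 18 months (18m) as well. TH was lysed with cycloheximide, which holds ribosomes on their mRNAs, and was spun through dense sucrose, so that the pellet (SC_TH) is enriched for RNA carried by ribosomes but may also hold other heavy particles.

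Between weaning and adulthood the mouse cortex continues to myelinate, prunes and stabilises synapses, and loses the last migrating and growing neurons. Oligodendrocytes pass from precursors through a short-lived, newly formed stage to mature cells that wrap axons, vessels complete their walls of collagen and elastin, and perineuronal nets close around inhibitory neurons. A ribosome pellet reads these changes in RNA that spins down with ribosomes. The share of its coding RNA that is bound by ribosomes was not measured.

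The pellets carried the RNA of a cortical homogenate at both ages. Slc17a7, the glutamate transporter of cortical excitatory neurons, lay at 1508, 1455, 1601 and 1722 CPM (counts per 1000000 counted reads, with library sizes scaled by TMM) in the 3w mice and at 1335, 1392, 1482 and 1535 CPM in the 5m mice, which overlap. The summed level of 20 excitatory neuron identity genes was 3567 to 4170 CPM at 3w and 3518 to 3728 CPM at 5m. A set of 18 long noncoding RNAs known to stay in the nucleus summed to 19120 to 26670 CPM in these 8 pellets and to 60360 to 75840 CPM in the input libraries of the same mice, so that nuclear RNA was reduced but not absent. Of 18416 genes tested between pellet and input, 4812 (26.1%) were higher and 4907 (26.6%) lower in SC_TH at 3w, and 5507 (29.9%) were higher and 5926 (32.2%) lower at 5m.

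Total counts were 3058278 to 7119395 in the 3w pellets and 5992223 to 13484631 in the 5m pellets, so that the older group was sequenced more deeply, and protein-coding genes held 93.0% to 94.7% of the counts. On the first principal component of the 12 SC_TH libraries of all ages (58% of the variance) the 3w mice lay at -27.3 to -15.7 and the 5m mice at 10.8 (mouse 191), -3.83 (192), -0.66 (193) and 12.5 (194). Mice 192 and 193 were therefore nearest to the 3w mice. The libraries were pooled and read in more than 1 run, which library was read in which run is not given in the sources used here, and depth and age cannot be told apart.

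Between 3w and 5m, 2948 of 16427 genes tested (17.9%) passed an adjusted p of 0.05 in edgeR's quasi-likelihood test with Benjamini-Hochberg adjustment, the test behind every adjusted p below. Of these, 1558 (9.48% of the genes tested) were higher at 5m and 1390 (8.46%) were lower. The 4 values of each age did not overlap for 1479 genes that were higher at 5m (9%) and 1454 that were lower (8.85%), and 1078 and 1077 of these, respectively, were also called. Most changes were small: the quartiles of all log2 fold changes were -0.23 and 0.22, the median was 0.01, and 108 called genes rose and 291 fell by more than 2-fold. Of the 2948 calls, 1312 held whichever of the 8 mice was omitted. The fit also held the 18m pellets. With only the libraries of 3w and 5m, 2112 of 15453 genes were called (1009 higher, 1103 lower). Where a count of list members is given below, the shares of all genes above are its background.

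**Figure D1:**
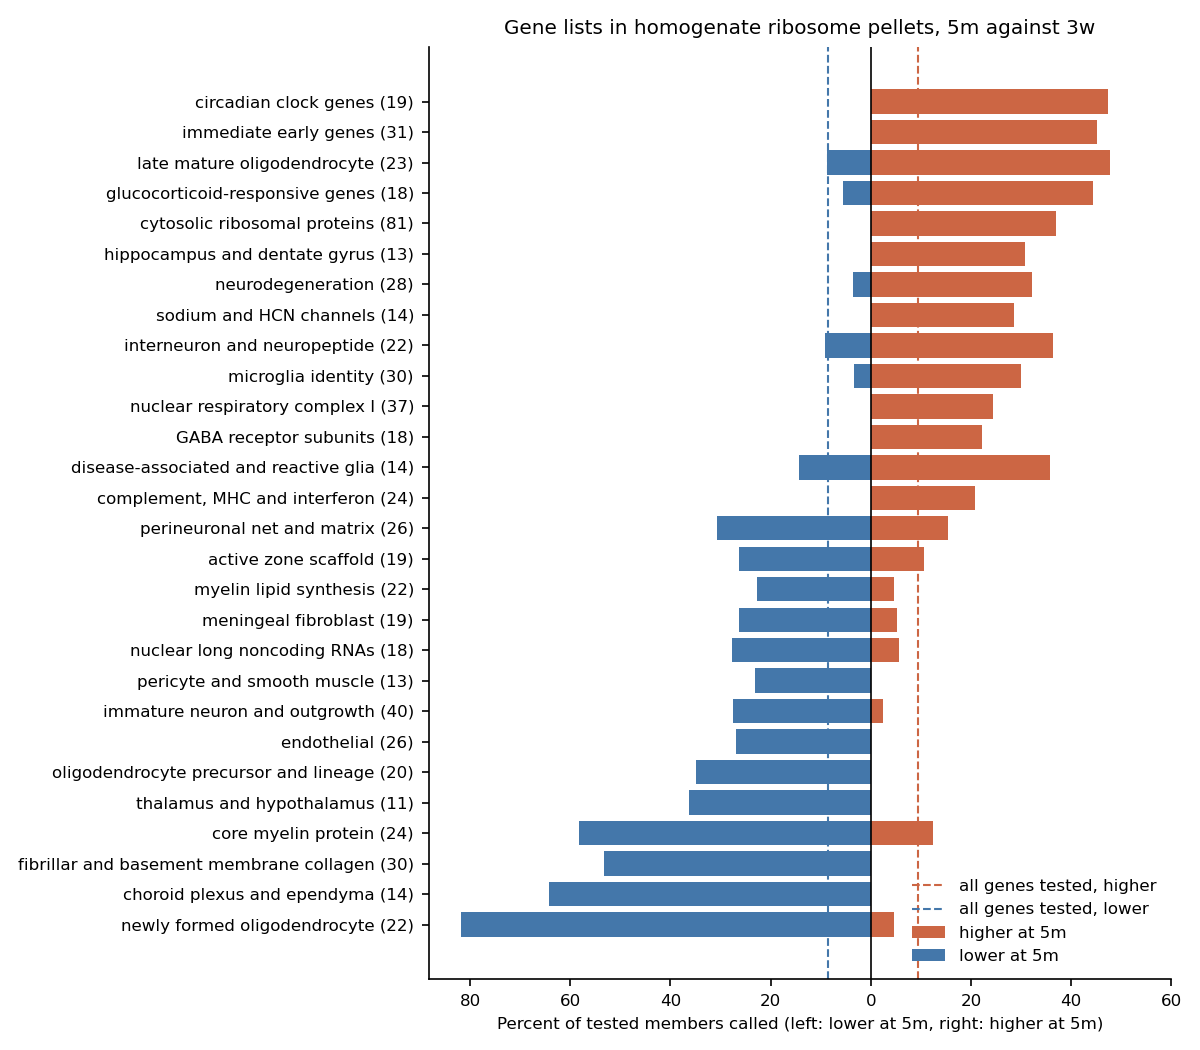
Bars give the percent of each list's tested members (number in brackets) that were called lower at 5m (left, blue) or higher at 5m (right, orange) in SC_TH. Lists of at least 10 tested genes were ranked by percent higher minus percent lower, and the 28 shown were taken in equal number from both ends. Dashed lines give the same percent over all 16427 genes. The newly formed oligodendrocyte list reaches 81.8% on the lower side, and the circadian clock list (47.4%) and the immediate early gene list (45.2%) lie on the higher side with no member called lower.

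Among lists of at least 10 tested genes the largest share of one-sided calls was in genes of newly formed oligodendrocytes, the transient cells that have left the cell cycle and are about to myelinate. Of 22 tested genes of this list 18 fell (81.8%) and 1 rose, with a median log2 fold change of -0.74 against 0.01 over all genes. In bulk tissue fewer cells of a type and less RNA per cell cannot be told apart, here and for each cell type below.

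Rnf122 (chromosome 8, 31111820 to 31131482), a ubiquitin ligase used as a marker of this stage, stood at 16.7, 13.2, 12.8 and 13.1 CPM in the 3w mice and at 2.44, 2.87, 4.19 and 2.81 CPM in the 5m mice. The groups were far apart, with every 5m mouse below every 3w mouse and a log2 fold change of -2.19 ± 0.20 (SE, n = 4 mice per age, adjusted p = 2.1e-06). Enpp6, a choline phosphodiesterase of the same stage, went from 15.6, 13.9, 17.3 and 8.83 CPM to 5.62, 3.04, 3.72 and 3.51 CPM, again without overlap (-1.79 ± 0.22, adjusted p = 6e-05). Casr, the calcium-sensing receptor (-2.13 ± 0.35), and Bmp4, a ligand that holds precursors back (-1.22 ± 0.26), fell as well. Bcas1, a cytoplasmic protein of early myelinating cells, fell by 1.35 ± 0.17 on the log2 scale in the pellets but by 0.33 in input_TH. Its exons overlap 2 antisense genes, and reads of a gene and its antisense partner cannot be told apart where counting ignores strand, as the study states for its other libraries.

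Precursor genes moved in the same direction by less. Of 20 precursor and lineage genes 7 fell and none rose (median -0.24). Gpr17, a receptor of committed precursors, stood at 107, 109, 116 and 120 CPM at 3w and at 45.7, 51.8, 41.3 and 47.6 CPM at 5m. The older mice lay below the younger ones in each case (-1.28 ± 0.11, adjusted p = 2.1e-06). Olig2, the transcription factor of the whole lineage, fell by 0.55 ± 0.09 and Pdgfra, the growth factor receptor of dividing precursors, by 0.39 ± 0.09 on the log2 scale.

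**Figure D2:**
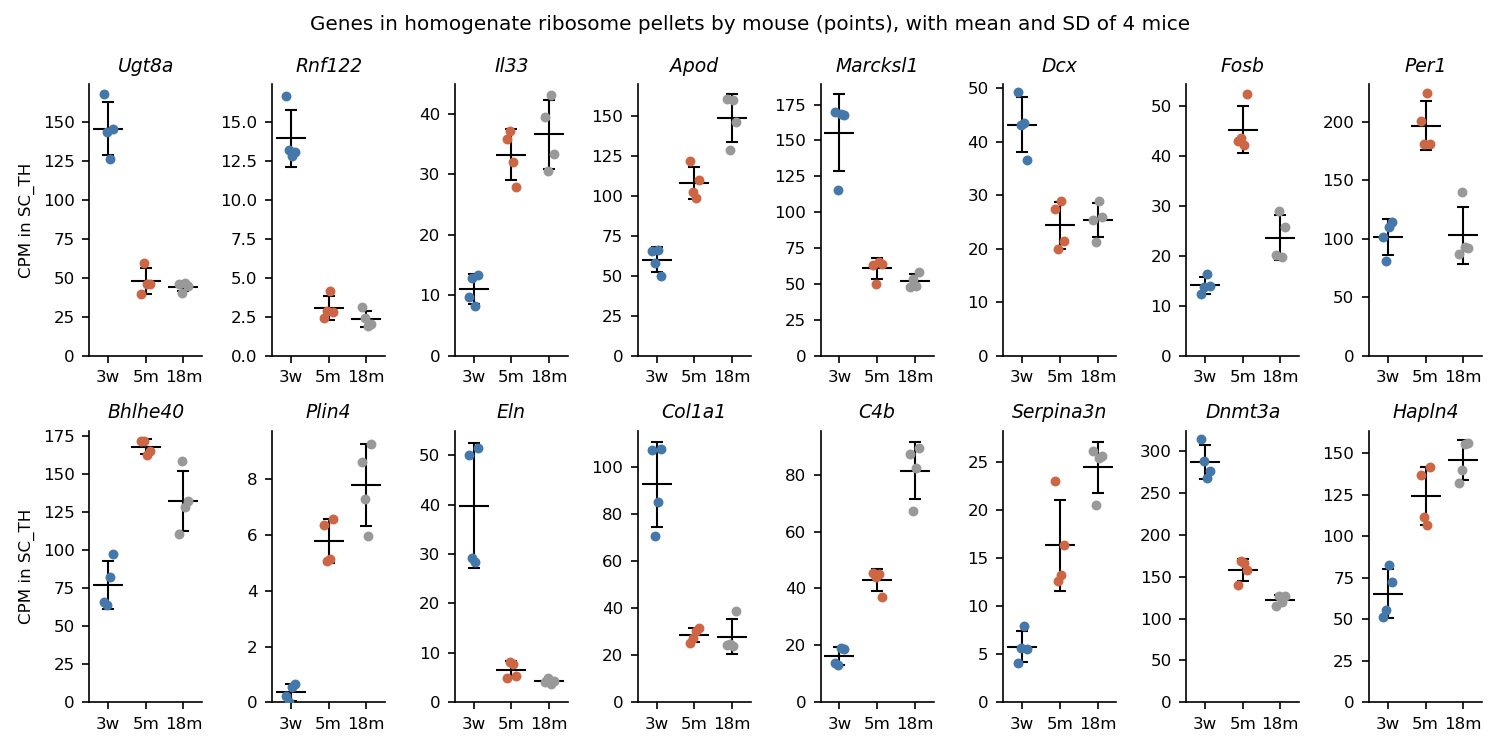
CPM in SC_TH of 16 genes, 1 point per mouse at 3w, 5m and 18m, with the mean and SD of 4 mice; the vertical axes are linear, start at 0 and differ between genes. The 3w and 5m points do not overlap for any of the 16 genes, and at 18m Per1 is back near its 3w level while Fosb lies between its 3w and 5m levels.

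Core myelin genes were lower at 5m. Of 24 tested members 14 fell (58.3%), 3 rose and the median log2 fold change was -0.72. Ugt8a (chromosome 3, 125865271 to 125938619), the enzyme that makes the myelin lipid galactosylceramide, stood at 168, 144, 127 and 146 CPM in the 3w mice and at 39.8, 59.5, 46.2 and 46.1 CPM in the 5m mice. The 3w values were all more than 2-fold above the 5m values (-1.62 ± 0.11, adjusted p = 2.1e-07), and per kilobase of exon Ugt8a went from 32.2 to 10.6 RPKM. Tspan2, a tetraspanin of the sheath, fell by 1.60 ± 0.13, Mog, a surface glycoprotein of the myelin sheath, by 1.13 ± 0.13 and Cnp, an enzyme of non-compact myelin, by 0.93 ± 0.09 on the log2 scale.

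Mbp, the basic protein that compacts the sheath, fell by less than these. It stood at 1442, 1068, 1227 and 1073 CPM at 3w and at 836, 794, 712 and 795 CPM at 5m, without overlap (-0.62 ± 0.09, adjusted p = 0.00036). In input_TH its log2 fold change was -1.22, and the test of the difference between pellet and input is given further on. Plekhb1, a membrane protein, rose by 0.63 ± 0.09 (log2) among the same list.

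Genes of late mature oligodendrocytes went the other way. Of 23 tested members 11 rose (47.8%), 2 fell and the median was 0.44. Il33 (chromosome 19, 29925114 to 29960718), an alarmin cytokine stored in the nuclei of mature oligodendrocytes, stood at 9.75, 12.8, 8.24 and 13.4 CPM at 3w and at 35.9, 37.1, 32 and 27.8 CPM at 5m. All 5m mice were more than 2-fold above the highest 3w mouse (1.63 ± 0.16, adjusted p = 7.5e-06). Apod, a lipid-binding apolipoprotein, went from 65.9, 58.2, 66.4 and 49.7 CPM to 122, 102, 98.6 and 110 CPM, with no overlap (0.84 ± 0.10, adjusted p = 7e-05). Hapln2, the link protein of the node of Ranvier, rose by 1.08 ± 0.17, Ndrg1 by 0.47 ± 0.08 and Qdpr, which regenerates tetrahydrobiopterin, by 0.41 ± 0.08. Gsn, an actin-severing protein, was a member that fell (-1.30 ± 0.09).

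Of 22 genes of myelin lipid synthesis 5 fell and 1 rose (median -0.02), and of 31 genes of cholesterol synthesis and uptake 8 fell and 4 rose (median -0.15). Hmgcs1, the enzyme before the rate-limiting step of cholesterol synthesis, stood at 534, 524, 426 and 490 CPM at 3w and at 264, 345, 346 and 246 CPM at 5m. The groups did not overlap (-0.72 ± 0.10, adjusted p = 0.00029). Cyp51, a later enzyme of the pathway, fell by 0.47 ± 0.08 and Abcg1, a cholesterol exporter, rose by 0.73 ± 0.09 on the log2 scale.

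Genes of immature and growing neurons fell in part. Of 40 members 11 fell (27.5%), 1 rose and the median was -0.14, and in input_TH 24 of the 40 fell with a median of -0.24. Marcksl1 (chromosome 4, 129513581 to 129515985), an actin-binding protein of growing processes, stood at 170, 115, 168 and 168 CPM at 3w and at 63.4, 50.3, 65.7 and 64.3 CPM at 5m. Its lowest 3w mouse was well above the highest 5m mouse (-1.35 ± 0.12, adjusted p = 2.1e-06). Dcx (chromosome X, 143855842 to 143933311), doublecortin of migrating neurons, went from 49.2, 43.1, 43.6 and 36.6 CPM to 27.4, 19.9, 28.8 and 21.5 CPM, also without overlap (-0.82 ± 0.13, adjusted p = 0.00062). Sox4, a transcription factor of newborn neurons, fell by 1.16 ± 0.12 and Nrep by 1.21 ± 0.13. Gap43, the growth cone protein, had a log2 fold change of 0.02 ± 0.08 (adjusted p = 0.87), and Map1b, a microtubule protein of axons, rose by 0.31 ± 0.07.

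Among 61 axon guidance genes 9 fell and 5 rose (median 0.04), shares close to the background of all genes on the higher side. Sema6a, a transmembrane semaphorin, fell by 0.86 ± 0.08 and Slit1, a secreted repellent, rose by 0.93 ± 0.13 on the log2 scale. Of 34 cell cycle genes 5 fell and 3 rose (median -0.13, and 0.046 with a minimum of 10 counts in every library). Top2a, the topoisomerase of dividing cells, was at 4.34, 5.17, 2.93 and 2.94 CPM at 3w and at 1.04, 1.69, 1.05 and 0.468 CPM at 5m. The groups did not overlap, although the mean raw count was only 18 at 3w and 9 at 5m (-1.89 ± 0.36, adjusted p = 0.0022).

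Enzymes that write and remove DNA methylation fell in part. Dnmt3a (chromosome 12, 3806007 to 3914443), the de novo methyltransferase of neurons, stood at 314, 288, 268 and 275 CPM at 3w and at 139, 168, 166 and 158 CPM at 5m. Every 5m mouse lay well below every 3w mouse (-0.86 ± 0.08, adjusted p = 2.1e-06). Tet1, which oxidises methylcytosine, fell by 1.09 ± 0.12 on the log2 scale, and Dnmt1, the maintenance enzyme, had a log2 fold change of 0.08 (adjusted p = 0.43). The alternative catalytic subunits of Polycomb complex 2 moved in opposite directions. Ezh2, the form of dividing cells, went from 8.24, 7.86, 7.12 and 6.87 CPM to 3.48, 3.04, 3.02 and 3.04 CPM without overlap (-1.24 ± 0.20, adjusted p = 0.00063), whereas Ezh1, the form of resting cells, rose by 0.41 ± 0.09 and Cbx7, a Polycomb chromodomain protein, by 0.92 ± 0.08. Over the list of 44 chromatin regulators 6 fell and 3 rose (median -0.07).

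Vessel wall and matrix genes fell together. Of 30 tested collagen and basement membrane genes 16 fell (53.3%) and none rose, with a median of -0.51. In input_TH 5 of the 30 fell and none rose (median -0.23). Col1a1 (chromosome 11, 94936224 to 94953042), a chain of fibrillar collagen I, stood at 107, 70.7, 85.1 and 108 CPM at 3w and at 25.3, 27.3, 30.4 and 31.7 CPM at 5m. The groups were more than 2-fold apart at their nearest values (-1.69 ± 0.16, adjusted p = 4.9e-06). Col3a1 went from 21, 13, 15.1 and 18.3 CPM to 2.66, 3.04, 3.84 and 2.69 CPM, likewise without overlap (-2.46 ± 0.24, adjusted p = 6.9e-06). Col4a1, a basement membrane chain, fell by 0.86 ± 0.11 and Nid1, which links collagen IV to laminin, by 1.01 ± 0.14. In input_TH neither Col1a1 (-0.96, adjusted p = 0.13) nor Col3a1 (-0.77, adjusted p = 0.35) was called.

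Eln (chromosome 5, 134702593 to 134747323), elastin, had the largest fall of any gene named by the size rule. It stood at 50.1, 29.2, 28.5 and 51.3 CPM in the 3w mice and at 4.96, 8.27, 7.79 and 5.26 CPM in the 5m mice. Each 5m value was more than 3-fold below the lowest 3w value (-2.61 ± 0.22, adjusted p = 1.4e-06). In input_TH, where mouse 191 was far above the other 5m mice, Eln had a log2 fold change of 0.19 (adjusted p = 0.86).

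Of 26 endothelial genes 7 fell (26.9%) and none rose (median -0.27), and of 13 pericyte and smooth muscle genes 3 fell and none rose (median -0.29). Kdr, the receptor for vascular endothelial growth factor, stood at 25.8, 26.5, 23 and 21.6 CPM at 3w and at 13.7, 14.2, 10.3 and 12 CPM at 5m. The groups did not overlap (-0.95 ± 0.14, adjusted p = 0.00028). Slco1a4, an organic anion transporter of the blood-brain barrier, fell by 1.19 ± 0.18 and Cldn5, the tight junction claudin, by 0.62 ± 0.14, while the pan-endothelial genes Pecam1 and Flt1 had log2 fold changes of -0.30 (adjusted p = 0.17) and -0.03 (0.88). Rgs5, a pericyte gene, fell by 0.82 ± 0.14. The input medians of both lists were positive (0.11 and 0.13).

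Meningeal and choroid plexus tissue clings to a dissected cortex in varying amounts. Meningeal genes summed to 587 to 723 CPM at 3w and 585 to 775 CPM at 5m, which overlap. In that list of 19 genes 5 fell, 3 of them collagens, and Ptgds, prostaglandin D synthase, rose from 216, 197, 238 and 263 CPM to 382, 430, 445 and 332 CPM without overlap (0.80 ± 0.12, adjusted p = 0.00043). Choroid plexus genes had the lowest median of the 64 lists (-1.38), with 9 of 14 lower and none higher, but they varied within each age. Their summed level was 960.5, 1483, 2052 and 1405 CPM at 3w and 958.8, 677.6, 315.6 and 243.2 CPM at 5m.

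Slc4a5, a bicarbonate transporter of the choroid plexus, stood at 7.15, 12.8, 15.1 and 11.1 CPM at 3w and at 4.96, 2.87, 1.28 and 0.351 CPM at 5m. The 5m mice spread over more than 10-fold among themselves and lay below the 3w mice (-2.20 ± 0.47, adjusted p = 0.0049). Ttr, transthyretin, the most abundant choroid plexus transcript, did not pass (351, 624, 1107 and 655 CPM against 413, 235, 45.8 and 13.7 CPM, adjusted p = 0.058). The count of 9 choroid genes fell to 3 without mouse 189, 4 without mouse 193 and 5 without mouse 194, and the median moved to -2.17 without mouse 191. In input_TH the library of mouse 191 stood apart, with summed choroid and meningeal levels of 1628 and 2406 CPM against 237.3 to 378.7 CPM and 453.5 to 545.5 CPM in the other 5m mice, and the part of this tissue in the results on vessels and matrix was not tested.

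Genes of the matrix around neurons changed in both directions. Of 26 perineuronal net and matrix genes 8 fell and 4 rose (median -0.23). Ncan, neurocan of the juvenile matrix, stood at 785, 773, 799 and 807 CPM at 3w and at 526, 546, 567 and 618 CPM at 5m, and Hapln4, the adult link protein of perisynaptic nets (chromosome 8, 70083457 to 70090862), at 51.4, 55.9, 82.6 and 72.3 CPM and at 137, 112, 107 and 141 CPM. Neither gene overlapped between ages, with log2 fold changes of -0.49 ± 0.07 (adjusted p = 0.00024) for Ncan and 0.92 ± 0.13 (adjusted p = 0.00028) for Hapln4. Tnc, tenascin C, fell by 1.10 ± 0.17, Bcan, brevican, by 0.34 ± 0.07 and Hapln1, the link protein of early nets, by 0.65 ± 0.15. With the trend on GC content and length removed Hapln1 was at -0.41 (adjusted p = 0.07). Acan, aggrecan, rose by 0.43 ± 0.13 (adjusted p = 0.033), but not without any one of mice 187, 188, 190, 191, 192 or 194 (adjusted p up to 0.102).

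Immediate early genes, which neurons transcribe within minutes of activity, were higher in the 5m mice. Of 31 tested members 14 rose (45.2%) and none fell, with a median of 0.56. The count ranged from 8 to 22 over the alternatives, with 8 without mouse 187 or 194 and 9 without mouse 188. The summed level was 1708, 1582, 2185 and 2503 CPM in the 3w mice and 2805, 2615, 2804 and 2827 CPM in the 5m mice, so that the ages did not overlap and the young mice differed more among themselves. In input_TH 7 of the 31 rose and 1 fell (median 0.22). There the summed levels overlapped, with 1531 to 2101 CPM at 3w and 1801 to 2059 CPM at 5m.

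Fosb (chromosome 7, 19302696 to 19310051), a partner of Jun proteins in the AP-1 factor, stood at 12.4, 13.7, 16.3 and 14.1 CPM at 3w and at 42.9, 43.5, 42.2 and 52.3 CPM at 5m. Each 5m mouse was more than 2-fold above the highest 3w mouse (1.66 ± 0.14, adjusted p = 1.8e-06). Fos went from 24.5, 22.9, 33.1 and 42.8 CPM to 57.7, 54.5, 61.4 and 49.5 CPM, without overlap but nearer to the threshold (0.87 ± 0.27, adjusted p = 0.032), and its call was lost without mouse 187, 188, 191, 193 or 194 (adjusted p up to 0.111). Egr1 behaved alike, with 250, 230, 417 and 416 CPM against 558, 466, 531 and 469 CPM (0.62 ± 0.19, adjusted p = 0.032, up to 0.115 without the same mice). Arc, whose product trims glutamate receptors at synapses, did not pass (log2 fold change 0.81, adjusted p = 0.064), and Npas4, which answers calcium entry alone, stood at 0.18 (adjusted p = 0.57). Dusp5, a phosphatase of the ERK kinases, rose by 1.03 ± 0.19 and Nr4a2, an orphan nuclear receptor, by 0.75 ± 0.13.

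Genes of the circadian clock were also higher. In this clock the activators Clock and Arntl drive Per, Cry and Bhlhe genes through E-boxes, and the products then shut the activators down. Of 19 tested clock genes 9 rose (47.4%) and none fell (median 0.39). The called members are repressors and output factors, while Arntl had a log2 fold change of -0.04 (adjusted p = 0.84) and Clock of -0.19 (adjusted p = 0.14).

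The 250 bases before the annotated start of 3 of these genes are printed because each carries the palindromic E-box, in capitals, that the activators bind, and because each gene rose. They are RefSeq sequences of GRCm38.p6, printed 5′ to 3′ on the strand of the gene, from chr11:69098699-69098948 (plus strand) for Per1, chr10:85185055-85185304 (minus strand) for Cry1 and chr6:145865421-145865670 (minus strand) for Bhlhe41.
Per1: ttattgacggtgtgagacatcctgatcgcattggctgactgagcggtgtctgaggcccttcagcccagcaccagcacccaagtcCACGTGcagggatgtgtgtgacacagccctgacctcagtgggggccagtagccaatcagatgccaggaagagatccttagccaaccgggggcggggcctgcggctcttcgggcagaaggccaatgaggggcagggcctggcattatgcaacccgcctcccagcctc
Cry1: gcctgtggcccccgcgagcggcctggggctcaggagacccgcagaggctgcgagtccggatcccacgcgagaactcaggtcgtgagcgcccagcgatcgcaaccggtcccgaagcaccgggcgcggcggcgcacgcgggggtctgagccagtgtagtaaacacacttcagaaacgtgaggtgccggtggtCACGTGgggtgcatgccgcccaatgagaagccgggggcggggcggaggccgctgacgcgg
Bhlhe41: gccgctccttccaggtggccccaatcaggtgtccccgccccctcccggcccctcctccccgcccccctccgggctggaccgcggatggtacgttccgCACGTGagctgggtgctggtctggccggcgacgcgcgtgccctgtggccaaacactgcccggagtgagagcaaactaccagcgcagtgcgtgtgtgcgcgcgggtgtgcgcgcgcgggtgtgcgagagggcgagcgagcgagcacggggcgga

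The E-box lay 166 bases before the start of Per1, 60 before that of Cry1 and 153 before that of Bhlhe41. Searched on both strands from 250 bases before to 50 after the start, the letters CACGTG occurred in 5 of 17 clock genes with a promoter in the RefSeq table and in 4 of the 7 such genes that rose. They occurred in 1246 of 10903 tested genes with a promoter (11.4%) and in 2349 of all 32851 promoters (7.15%). The cyclic AMP response element TGACGTCA, searched in the same way, was in 2 of 25 immediate early genes and in none of the 12 with a promoter that rose, against 3.56% of tested genes and 1.79% of all promoters. A match of letters is a description of the window and not a measured binding site.

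Per1 (chromosome 11, 69095217 to 69109960) stood at 101, 80.6, 110 and 114 CPM at 3w and at 200, 181, 224 and 181 CPM at 5m. The ages did not overlap (0.96 ± 0.14, adjusted p = 0.00029). Bhlhe40, a repressor that competes for the same E-boxes, went from 65.7, 64, 82.5 and 97.5 CPM to 172, 172, 163 and 165 CPM, with a wide gap between the ages (1.12 ± 0.12, adjusted p = 1.8e-05). Cry1 moved from 18, 17.5, 14.4 and 15.4 CPM to 22, 24.5, 29 and 25 CPM, and Bhlhe41 from 30.1, 35.3, 35 and 34 CPM to 49.5, 46.1, 59.7 and 53.6 CPM, both without overlap (0.62 ± 0.13 and 0.63 ± 0.10). Per2 rose by 0.85 ± 0.13, Tef by 0.49 ± 0.09 and Cry2 by 0.39 ± 0.09. The time of day at which each mouse was killed is not given in the sources used here, and its part was not tested.

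Of 18 genes induced by glucocorticoids 8 rose (44.4%) and 1 fell (median 0.33). Plin4 (chromosome 17, 56100591 to 56109803), a lipid droplet protein, was nearly absent at 3w, with 0.217, 0, 0.558 and 0.654 CPM, and stood at 6.36, 5.06, 5.12 and 6.55 CPM at 5m. The fitted log2 fold change of 3.96 ± 0.39 (adjusted p = 6.2e-06) depends on the prior count at so low a level, and its exons overlap those of Hdgfl2. Sgk1, a kinase induced by the hormone, rose by 0.82 ± 0.13, Fkbp5, which dampens its receptor, by 0.80 ± 0.11 and Tsc22d3 by 0.53 ± 0.09. Hsd11b1, the enzyme that makes active corticosterone, fell by 0.62 ± 0.17 (adjusted p = 0.018, and 0.062 at most without mouse 189 or 194).

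Among ion channels and transporters the differences were small and mixed. Of 61 potassium channel genes 11 rose (18.0%) and 3 fell (median 0.13), with 7 rising without mouse 188 or 194 and 19 without mouse 192. Kcnv1, a silent subunit, went from 88, 93.9, 87.2 and 100.4 CPM to 67, 62.2, 65.5 and 66.3 CPM, without overlap (-0.50 ± 0.08, adjusted p = 0.00048). Of the chloride transporters that set the sign of GABA responses, Slc12a2, which brings chloride in, went from 148, 150, 122 and 132 CPM to 80.2, 107, 90.2 and 78.9 CPM (-0.63 ± 0.10, adjusted p = 0.00065), and Slc12a5, which takes it out, from 783, 783, 859 and 834 CPM to 987, 978, 973 and 1059 CPM (0.29 ± 0.06, adjusted p = 0.0033). Neither gene overlapped between ages, and Slc12a5 was at 0.16 (adjusted p = 0.056) with the trend on GC content and length removed. Slc12a2 is also expressed by the oligodendrocyte lineage and choroid plexus.

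Receptor subunits changed little. Of 18 GABA receptor subunits 4 rose and none fell (median 0.14), and no call remained without mouse 187 or without mouse 191. Of 6 NMDA receptor subunits 1 fell, Grin2b, the juvenile subunit, by 0.22 ± 0.06 on the log2 scale (adjusted p = 0.022, and 0.061 without mouse 188). Grin2a, the adult subunit, was at -0.18 (adjusted p = 0.13), and none of 7 metabotropic glutamate receptors passed.

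Of 22 interneuron and neuropeptide genes 8 rose (36.4%) and 2 fell (median 0.34, against -0.03 in input_TH), with 3 to 11 rising over the alternatives. Gad1, which makes GABA, went from 211, 208, 222 and 200 CPM to 345, 235, 272 and 323 CPM, without overlap (0.48 ± 0.10, adjusted p = 0.004). Pvalb, the calcium buffer of fast-spiking interneurons, had a log2 fold change of 0.07 (adjusted p = 0.7). In the synaptic vesicle list 8 of 50 rose and 4 fell (median 0.13), with 2 to 10 rising over the alternatives. Syt2, the fast calcium sensor, rose by 0.57 ± 0.09, whereas the syntaxin Stx1a fell by 0.50 ± 0.08. Of 19 active zone genes 5 fell and 2 rose (median -0.15): Rims1 fell by 0.39 ± 0.07 and its short relative Rims3 rose by 0.64 ± 0.10. In calcium signalling Camk4, a nuclear kinase, fell by 0.69 ± 0.09, and Camkk1, a kinase that acts on it, rose by 0.70 ± 0.07.

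The clustered protocadherins, which give neurons their surface identity, split by cluster. Of 21 tested gamma genes 10 rose and none fell (median 0.58), of 12 alpha genes 2 fell and none rose (median -0.27), and of 21 beta genes 3 fell and 1 rose (median 0.14). Pcdhgb7 stood at 8.67, 6.51, 6.56 and 5.56 CPM at 3w and at 18.1, 13, 11.9 and 14.5 CPM at 5m, without overlap (1.08 ± 0.17, adjusted p = 0.00048). Pcdha3 fell by 0.68 ± 0.16 (log2). The genes of the gamma cluster, like those of the alpha cluster, share their last exons. How reads on these shared exons were counted is not given in the sources used here.

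Ribosomal protein genes rose in part. Of 81 tested cytosolic members 30 rose (37%) and none fell (median 0.27, against 0.06 in input_TH). Their summed level was 3947, 3889, 4105 and 4313 CPM at 3w and 4688, 4629, 4444 and 4665 CPM at 5m, which do not overlap. The count of 30 depended on single mice, with 15 without mouse 187, 11 without 188, 17 without 191 and 13 without 194.

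Rpl27a, a protein of the large subunit, went from 44, 39.8, 46.8 and 46.4 CPM to 62.1, 57.9, 57.7 and 70.3 CPM without overlap (0.49 ± 0.09, adjusted p = 0.0025). Rps21, the member with the largest change, stood at 8.45, 5.39, 16.3 and 11.4 CPM at 3w and at 33.5, 13.7, 17.8 and 34.8 CPM at 5m. These groups overlap, with mice 191 and 194 well above mice 192 and 193 (1.24 ± 0.32, adjusted p = 0.014, and 0.056 at most without mouse 187, 188 or 194). Of 78 mitochondrial ribosomal proteins 12 rose and none fell (median 0.24), with 3 to 19 over the alternatives, and of 37 complex I subunits 9 rose and none fell (median 0.08), with 2 to 10. The 15 mitochondrially encoded RNAs had a median of 0.55 with 3 calls, and 0.05 in input_TH. These values depended on the processing, with 0 to 12 calls over the alternatives and a median of 0.21 without mouse 191 and of 1.22 with the trend on GC content and length removed. Many pseudogenes share reads with ribosomal protein genes, which makes single members uncertain.

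Lower calls outnumbered higher ones in the larger noncoding classes. Of 872 genes of the class TEC, unspliced transcripts whose coding status is not settled, 280 were lower and 2 higher, with a median of -0.57, and 42 of 285 lincRNAs were lower and 6 higher (median -0.24). With the trend on GC content and length removed the TEC class had 110 lower and 10 higher with a median of -0.26, and 150 were lower without mouse 187, 179 without mouse 188 and 173 without mouse 194. Of 191 antisense genes 14 were lower and 5 higher (median 0.02). Among 13500 protein-coding genes 1503 were higher and 940 lower (median 0.04). Kcnq1ot1, an imprinted antisense RNA held at chromatin, stood at 315, 255, 257 and 237 CPM at 3w and at 177, 167, 169 and 138 CPM at 5m. The pellets of the ages did not overlap (-0.71 ± 0.09, adjusted p = 0.00011), while in input_TH its log2 fold change was 0.07. Of 18 nuclear long noncoding RNAs 5 fell and 1 rose (median -0.07), and Malat1, the most abundant, did not pass (-0.41, adjusted p = 0.06).

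The opposite case was Rmrp (chromosome 4, 43492788 to 43493058), the RNA of the processing enzyme RNase MRP, which rose from 94.1, 90.3, 129 and 114 CPM to 560, 243, 287 and 577 CPM. The groups did not overlap and mice 191 and 194 were again the highest (1.96 ± 0.24, adjusted p = 7.1e-05). Its locus overlaps Ccdc107.

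The direction of change followed base composition. Over 5 groups of genes of equal size by the GC content of their exons, from 27.5% to 44.1% in the lowest group and from 55.5% to 75.5% in the highest, the median log2 fold change in SC_TH was -0.21, -0.07, 0.03, 0.11 and 0.17. In input_TH the same medians were 0.05, 0.03, 0.00, -0.01 and -0.04. In the lowest group 573 genes fell and 45 rose, and in the highest 121 fell and 635 rose. Groups of equal size by length showed medians between -0.03 and 0.04. With the trend on GC content and length taken out, 2590 genes were called (1485 higher, 1105 lower), 1944 of them among the 2948. Values that moved with it are given beside only some of the lists and genes. Slc17a7 went from a log2 fold change of -0.13 (adjusted p = 0.18) to -0.26 (adjusted p = 0.011). Grin2b (-0.15, adjusted p = 0.11) and Egr1 (0.51, adjusted p = 0.06) lost their calls. Medians fell to 0.06 for potassium channels, 0.04 for glycolysis and the citric acid cycle and 0.06 for astrocyte genes.

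**Figure D3:**
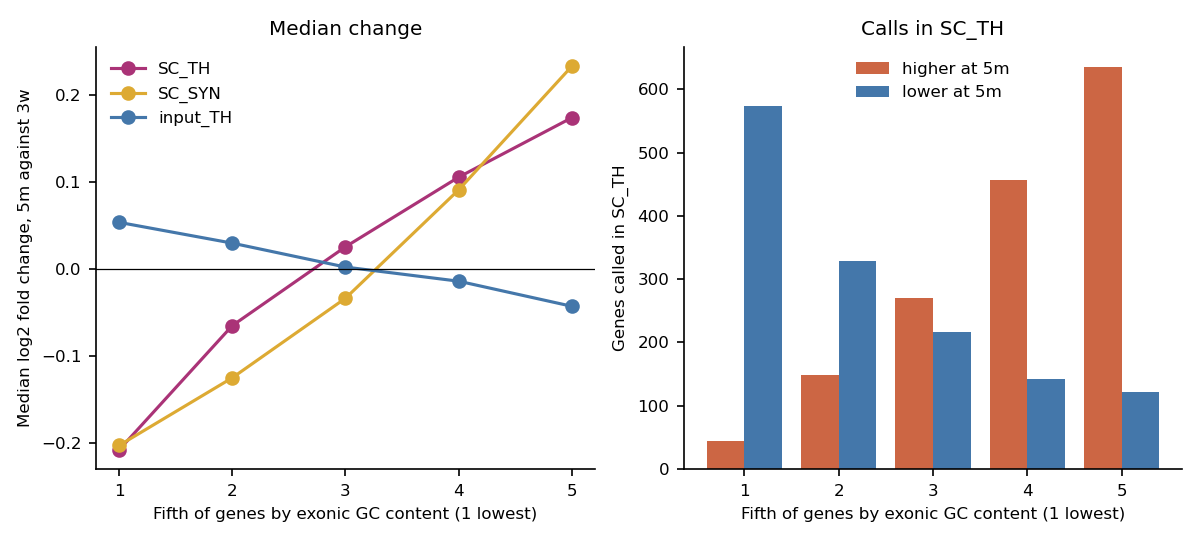
Left, median log2 fold change of 5m against 3w over 5 equal groups of the tested genes by exon GC content (horizontal axis, lowest to highest), for SC_TH, input_TH and SC_SYN, and right, the number of genes called higher or lower at 5m in SC_TH in each group. The pellet medians climb from -0.21 to 0.17 in SC_TH and from -0.20 to 0.23 in SC_SYN, whereas the input medians run from 0.05 to -0.04.

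Microglia genes were higher at 5m in part. Of 30 microglia genes 9 rose (30%) and 1 fell (median 0.32, against -0.07 in input_TH), with 5 to 12 rising over the alternatives and 5 without mouse 188. The summed level was 1028, 952, 1069 and 952.1 CPM at 3w and 1428, 1162, 1158 and 1314 CPM at 5m, with no overlap. Lyz2 (chromosome 10, 117277331 to 117282321), lysozyme, went from 2.6, 2.92, 2.23 and 2.62 CPM to 9.1, 5.9, 5 and 7.37 CPM (1.45 ± 0.25, adjusted p = 0.001), the latter all above the former. C1qa, a chain of the first complement component, rose by 0.62 ± 0.11 and Trem2, a lipid receptor, by 0.86 ± 0.18, both without overlap. The homeostatic receptors Cx3cr1 (log2 fold change -0.02, adjusted p = 0.93) and P2ry12 (0.12, adjusted p = 0.8) did not pass.

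C4b (chromosome 17, 34728380 to 34743882), complement component 4, stood at 13.9, 13.2, 19.3 and 18.6 CPM at 3w and at 45.5, 44, 45 and 37.1 CPM at 5m. Every 5m mouse was nearly 2-fold or more above the highest 3w mouse (1.39 ± 0.13, adjusted p = 5.1e-06), with the reserve that C4a is a near-identical copy. Serpina3n, a protease inhibitor of reactive astrocytes, went from 4.12, 5.61, 7.96 and 5.56 CPM to 23, 12.7, 13.3 and 16.4 CPM, also without overlap (1.47 ± 0.22, adjusted p = 0.00037). Of 41 astrocyte genes 9 rose and 4 fell (median 0.15). Gfap, the filament protein of reactive astrocytes, had a log2 fold change of 0.13 (adjusted p = 0.33), Aqp4, the water channel of their end-feet, fell by 0.47 ± 0.09 and Mt2, a metallothionein, rose by 1.06 ± 0.22. Of 47 chaperone genes 5 rose (10.6%) and 3 fell (6.38%), shares close to those of all genes, and the median was 0.04. The inducible Hspa1a (1.23 ± 0.23, a near copy of Hspa1b) and its partner Dnajb1 (0.51 ± 0.09) were among those that rose.

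Of 43 imprinted genes 7 rose and 7 fell (median -0.04). Peg10, a gene derived from a retrotransposon, stood at 20.6, 14.1, 19.3 and 14.1 CPM at 3w and at 54.9, 30, 29.7 and 38.5 CPM at 5m, without overlap and with mouse 191 the highest (1.16 ± 0.20, adjusted p = 0.00097). Mkrn3, a maternally imprinted ubiquitin ligase that holds back puberty, went from 3.47, 3.14, 3.21 and 2.29 CPM to 0.444, 1.35, 0.465 and 0.468 CPM, also without overlap, on mean raw counts of 15 and 6 (-2.31 ± 0.38, adjusted p = 0.00071). Igf2, a growth factor made mainly by meninges and choroid plexus, fell by 0.66 ± 0.15, and Ndn, necdin of postmitotic neurons, rose by 0.42 ± 0.10. Of 7 erythroid genes 6 fell and none rose (median -0.62, and 3 fell without mouse 187, 190, 193 or 194), among them the beta-globin Hbb-bs (-0.93 ± 0.20), whose copies share reads.

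Genes that mark regions next to the cortex differed as well. Of 13 hippocampal genes 4 rose and none fell (median 0.32), of 15 striatal genes 3 rose and none fell (median 0.26), and of 11 thalamic and hypothalamic genes 4 fell and none rose (median -0.70). Over the alternatives 1 to 5 hippocampal and 1 to 6 striatal genes rose and 1 to 6 thalamic and hypothalamic genes fell, and the striatal median was 0.04 without mouse 194. The part of the dissection in the other results was not tested. Of 28 genes linked to neurodegeneration 9 rose and 1 fell (median 0.14). Of 55 translation initiation and elongation factors 3 rose and none fell, of 51 splicing genes 3 rose and 2 fell, of 34 proteasome genes 1 rose and 3 fell, and of 42 genes of glycolysis and the citric acid cycle 8 rose and 4 fell, with 3 to 12 rising over the alternatives.

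The size rule, the 12 largest changes on each side among called genes without overlap and with at least 50 counts in the higher group, named 12 genes in each direction. Beside those described above, the genes that rose were Abca8a, a lipid transporter, from 2.82, 1.8, 1.95 and 2.29 CPM to 12, 13.5, 10.8 and 10.3 CPM (2.40 ± 0.20, adjusted p = 1.3e-06), then Alox12b, a lipoxygenase (2.01 ± 0.26), Hsf4, a heat shock factor (1.88 ± 0.15), Xdh, xanthine dehydrogenase (1.76 ± 0.31), Adamtsl4, a matrix protein (1.57 ± 0.22), and Prg4, lubricin, whose exons overlap those of Tpr (1.43 ± 0.29). The genes that fell were Fabp7, the fatty acid binding protein of radial glia and young astrocytes, from 50.5, 42.4, 28.9 and 43.5 CPM to 9.25, 17.4, 8.37 and 11.6 CPM (-1.86 ± 0.21, adjusted p = 2.8e-05), then Mfrp (-1.79 ± 0.55), Col9a3 (-1.64 ± 0.15) and Tnnc1, a troponin (-1.52 ± 0.24). The values of Abca8a and Fabp7 did not overlap between ages. Mfrp overlaps C1qtnf5 and lost its call without mouse 187, 188, 189, 193 or 194 (adjusted p up to 0.081).

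The same mice were compared in input_TH to see which changes were present before the cushion. Of the 2939 genes called in SC_TH and tested in input_TH, 2296 had the same sign there, and 755 were also called, 742 of them in the same direction. In input_TH 2069 of 16238 genes tested in both were called (12.7%). Across these 16238 genes Pearson's r of the log2 fold changes was 0.43, and 0.66 over the 2939, as a description of libraries that come from the same mice.

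**Figure D4:**
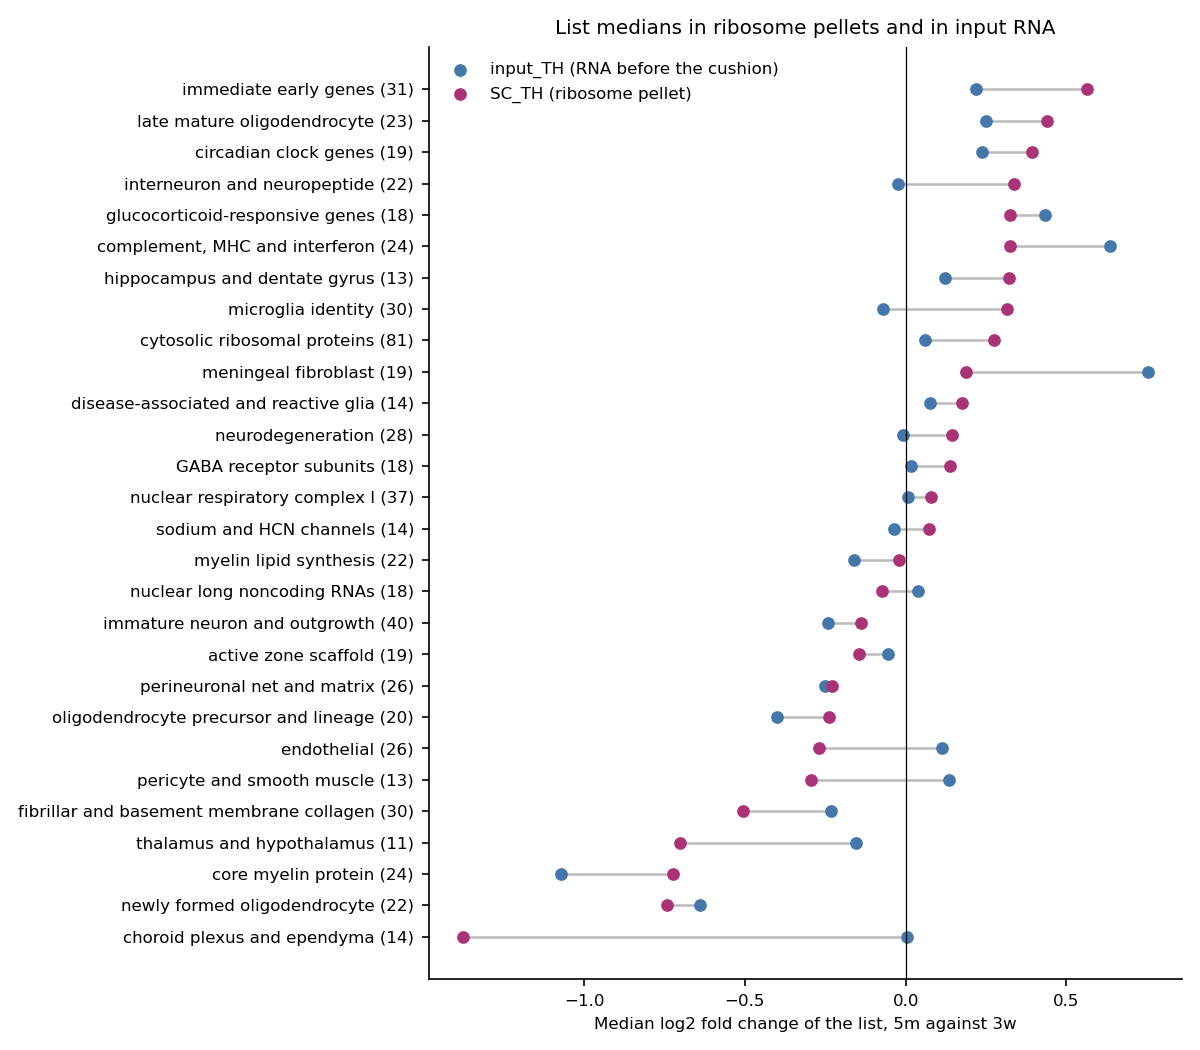
Median log2 fold change of 5m against 3w for the same 28 lists (number of genes tested in SC_TH in brackets) in input_TH (blue) and in SC_TH (purple), joined by a line. Newly formed, precursor, core myelin and late oligodendrocyte genes lie on the same side of 0 in both, whereas choroid plexus genes differ most of these lists, with 0.00 in input_TH and -1.38 in SC_TH.

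The study calls the ratio of pellet to input translational efficiency (TE). Its change with age (TE change) was tested as an interaction over all 24 TH libraries. This ratio is not a direct measure of loading on ribosomes. Of 18416 genes 185 (1%) were called higher and 244 (1.32%) lower at 5m, and 303 and 361 with the mouse as a block, since pellet and input came from the same animal. Of the 429, 336 were also called in SC_TH. The split moved with the scaling, to 105 higher and 356 lower with library size in place of TMM and to 458 higher and 291 lower without the mitochondrially encoded genes. Of the 185 higher genes 174 were protein-coding with a median GC content of 57.3%, and of the 244 lower genes 96 were protein-coding and 91 were of class TEC, with a median of 42.3%. The count was not stable: it fell to 63 with the trend on GC content and length removed, to 1 without mouse 187 or without mouse 194 and to 6 without mouse 188, and it rose to 1350 without mouse 192.

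Among genes described above Mbp had a TE change of 0.58 ± 0.13 (adjusted p = 0.019) and Bcas1 of -1.04 ± 0.20 (adjusted p = 0.012). Mbp and Bcas1 lost the call without mouse 187, 188 or 194 (adjusted p up to 0.086 for Mbp and 0.072 for Bcas1), and Mbp also with the trend on GC content and length removed (adjusted p = 0.081). Ezh2 (-1.16, adjusted p = 0.013), Kcnq1ot1 (-0.81, 0.0021), Cnp (0.51, 0.021) and Dnmt3a (-0.37, 0.041) were called as well, among others. The largest called TE changes toward the pellet were Rmrp (1.66 ± 0.26), Cdc42ep2, an effector of the GTPase Cdc42 (0.98 ± 0.24), Adamtsl4 (0.97 ± 0.27), Trem2 (0.96 ± 0.21) and Rpph1, the RNA of RNase P (0.94 ± 0.26), and the largest away from it were Eln (-2.82 ± 0.70), Ces5a (-1.41 ± 0.37), Slfn5 (-1.37 ± 0.28), Caps2 (-1.35 ± 0.30) and Rab11fip1 (-1.19 ± 0.30). Each of the 10 lost its call without mouse 187 and without mouse 194. In the input library of mouse 191, which stood apart, Eln was at 103.9 CPM against 9.864 to 15.33 CPM in the inputs of the other 5m mice, and the TE change was -1.15 (adjusted p = 0.06) without that mouse.

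The ribosome pellets of synaptosomes from the same mice (SC_SYN) moved largely with those of the homogenate. Of 2573 genes called in SC_TH and tested in SC_SYN 2389 had the same sign, and 664 were also called, 661 in the same direction, while 1139 of 14147 genes tested in both were called in SC_SYN (8.05%). Pearson's r of the log2 fold changes was 0.68 across these 14147 genes and 0.82 over the 2573, in libraries of the same mice. The age change differed between the fractions in 5 of 16630 genes (0.0301%), and 1324 had an unadjusted p under 0.05. In all 5 the change from 3w to 5m was more positive in the synaptosomal pellet than in the homogenate pellet: Gm37524, 9330162G02Rik and 2900027M19Rik of class TEC, the lincRNA Lncpint, and Intu, a gene of primary cilia. With the mouse as a block the count was 10, and it was 0 when mouse 187, 190, 191, 192, 193 or 194 was left out, 1 without mouse 188 and 8 without mouse 189.

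The mice of 18 months give the later level of the same genes. Between 5m and 18m 356 of 16427 genes were called in SC_TH (2.17%), and since both comparisons use the 5m libraries their values are set side by side only. Ugt8a averaged 146 ± 16.9 CPM at 3w, 47.9 ± 8.32 at 5m and 44.5 ± 2.99 CPM at 18m (SD, n = 4). Dnmt3a went from 158 CPM at 5m to 122 CPM at 18m and Apod from 108 to 149 CPM, while Il33 averaged 33.2 and 36.6 CPM. Of 31 immediate early genes 13 fell between 5m and 18m and none rose, with a median of -0.53. Fosb averaged 14.1, 45.2 and 23.7 CPM at 3w, 5m and 18m, Fos 30.8, 55.8 and 24.3 CPM and Per1 102, 197 and 103 CPM. C4b averaged 16.3, 42.9 and 81.4 CPM at the same ages.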

How the data were processed

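The authors sequenced rRNA-depleted RNA with a directional kit that adds molecular identifiers, and deposited raw read counts per gene. The submitters' processing notes name bcl2fastq 2.20.0.422, TopHat2 2.1, featureCounts and GRCm38. The study's methods give counting without strand for its other libraries and refer back to them for the mapping of these. Whether identifiers were used to remove duplicates is not given in the sources used here. The table held 48526 genes, of which 48144 identifiers were in GENCODE M21, which gave symbols, coordinates and classes. Genes outside it held 0.0596% of the counts.

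Counts were filtered with filterByExpr, scaled by TMM and tested with edgeR 4.0.16 (limma 3.58.1, R 4.3.3), using the quasi-likelihood test and Benjamini-Hochberg adjustment over all genes tested at 0.05. The 12 SC_TH libraries of the 3 ages entered 1 fit, and the interaction fits used 24 libraries. CPM used TMM-scaled library sizes. A prior count of 2 entered the log2 CPM behind the principal components and the correlations between libraries. Log2 fold changes used edgeR's default prior count. All p-values are two-sided and measure the spread between mice of which nothing beyond age, sex and strain is known. DESeq2 1.42.0, other filters and scalings, thinning to the smallest library, a loess trend (span 0.5) on GC content and length, and leaving out each mouse were alternatives.

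The comparison and 64 gene lists (1922 symbols, 1811 tested, 11 not found) were chosen with earlier results of these data known, so lists are described by counts and medians with no test. Genes named were the 12 largest called changes per direction with at least 50 counts in the higher group and no overlap between ages, members of the lists, and the 5 largest called changes per direction of each interaction test. Some genes are not reported here. Promoters ran from 250 bases before to 50 after the RefSeq start. On simulated counts, the SC_TH fit recovered 96 of 100 genes changed by 1 and 49 of 100 changed by 0.5 on the log2 scale. The TE fit recovered 88 and 37 (92 and 33 with the block), and the SC_SYN fit 54 and 2. Changes were planted only in genes above a minimum expected count, and the simulated noise was independent between genes. These rates therefore do not cover genes with few counts or differences between mice shared by many genes. The 4 libraries with 1 mouse number came from that mouse, which pairs pellet with input and with synaptosomes. Deviations from the group means correlated at -0.0363 to 0.196 between SC_TH and input_TH of a mouse, and at -0.17 to 0.281 between SC_TH and SC_SYN. Some pellets correlated best with the input_TH library of another mouse, and most correlated best with the SC_SYN library of another mouse.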

Additional observations from a re-analysis of the deposited data

Results flagged for a closer look

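Among 400 sets of 4 mice, 15 had 1 mouse whose gap to the others exceeded Dixon's 95% critical value, and chance alone gives about 1 in 20. At 3w, Rnf122 was 16.69 CPM in mouse 187 against 12.84 to 13.25 CPM in the others. Mouse 188 was low for Marcksl1 (115.2 CPM against 167.8 to 170.2), Hbb-bs (195.4 against 279.9 to 291.6) and the summed clustered protocadherins (934.9 against 983.1 to 992.5). Mouse 189 was high for Nr4a2 (52.21 CPM against 34.67 to 37.05) and Alox12b (2.931 against 1.123 to 1.308), and mouse 190 for Tnnc1 (15.04 against 9.538 to 10.33).

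At 5m, mouse 191 was high for Ezh2 (3.477 CPM against 3.024 to 3.04) and P2ry12, the microglial receptor (18.35 against 7.085 to 8.769). Mouse 192 was low for Marcksl1 (50.27 CPM against 63.4 to 65.7) and the summed immediate early genes (2615 against 2804 to 2827), and high for Mkrn3 (1.35 against 0.4439 to 0.4677). Mouse 193 was high for Per2 (77.8 CPM against 64.95 to 65.6), and mouse 194 for Fosb (52.27 against 42.21 to 43.52) and Slc12a5 (1059 against 972.5 to 987.3). In each case the ages of the called genes did not overlap.

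The change with age differed between pellet and input for 429 genes. The genes with the largest differences on the log2 scale were Rmrp (1.657), Cdc42ep2 (0.9761), Adamtsl4 (0.9735), Trem2 (0.9613) and Rpph1 (0.9429) on the pellet side, and Eln (-2.818), Ces5a (-1.412), Slfn5 (-1.368), Caps2 (-1.347) and Rab11fip1 (-1.186) on the other. It differed between the pellets of synaptosomes and homogenate for 5 genes, by 3.864 for Gm37524, 2.069 for 2900027M19Rik, 1.54 for Lncpint, 1.097 for 9330162G02Rik and 0.9858 for Intu. The exons of Lncpint overlap 2210408F21Rik and those of 9330162G02Rik overlap Ube3a.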

How the results depend on the processing

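The count of 2948 genes ranged from 1653 (without mouse 194) to 4124 (without mouse 192), with 762 to 2122 higher and 843 to 2002 lower. The higher calls were 926 with all 48 libraries in 1 fit, 1027 after thinning and 1009 with only the 3w and 5m libraries. The 429 genes of the TE change became 1175 with DESeq2, 792 with at least 10 counts in every library, 216 after thinning, 1303 with no filter, 224 with only 3w and 5m, 63 with the trend on GC content and length removed, 749 without mitochondrially encoded genes, and 1 (without mouse 187 or 194) to 1350 (without mouse 192). With the mouse as replicate block they were 664, and the 10 genes named for this test were called in both fits. The 5 genes of the synaptosomal difference became 55 with DESeq2, 2 with the minimum of 10 counts, 0 after thinning or with only 3w and 5m, 22 with no filter, 10 with the GC and length trend removed, 10 with the replicate block, and 0 to 8 without 1 mouse. The comparison of SC_TH between ages holds different mice at each age and could not be blocked. The block moved neither count of pellet against input past 1.5 times. The cause of these shifts was not tested.

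Of 116 named genes called between ages, 98 were called with the same sign in every alternative. Hapln1, Acan, Egr1, Slc12a5, Grin2b and Rpph1 lost the call with the GC and length trend removed, Fos, Egr1 and Mfrp with DESeq2, and Bmp4, Acan, Hsd11b1 and Rab11fip1 after thinning. With all 48 libraries in 1 fit Cldn5, Ptgds, Slc4a5, Egr1, Cry2, Grin2b, Mt2, Igf2 and Mfrp lost it. Of the list medians, cell cycle and DNA replication changed sign to 0.046 with the minimum of 10 counts, and neurofilament and mature cytoskeleton to -0.0303 with the trend removed. The chloride and bicarbonate transporters changed sign to 0.0033 with the trend removed and ranged from -0.069 to 0.0052 without 1 mouse. Other medians near 0 changed sign too, among them axon guidance (-0.06 after thinning), chaperones (-0.06 without mouse 192), excitatory neuron identity (-0.03 without mouse 188), imprinted genes (0.04 with the trend removed) and myelin lipid synthesis (0.01 with the trend removed). After thinning to the smallest library 2004 genes were called in all.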
